A study of Arabidopsis thaliana with 6 samples.

Results

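The transcripts described here are 83 of 22746 probe sets whose signal was lower in Arabidopsis thaliana seedlings after 2 h of estradiol than after mock treatment. They were chosen on the measured signals of all 6 arrays. Each of the 3 estradiol signals lay below all 3 mock signals, the mean of log2(signal + 16) was at least 0.5 lower with estradiol, and the mean mock signal was at least 64. The probe set of AT1G26800 was left out. Since these values made the choice, they are given as a description with no test.

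Whole seedlings of the Col-0 background, aged 14 days and of the T3 generation, were grown with 16 h of light and 8 h of dark, and kept for a night in liquid ½ MS. They were frozen after 2 h in fresh medium with 10 µM estradiol or with the mock. All 6 samples, controls included, carry the same construct, in which the constitutively expressed factor XVE enters the nucleus when bound to estradiol and transcribes RPXΔC from a LexA promoter. Total RNA was labelled with biotin and measured on 1-colour Affymetrix arrays, with 3 biological replicates of each treatment. The mock is described as ethanol in one label and as medium without inducer in another, and untransformed seedlings were not analysed here, so the inducer, its vehicle and RPXΔC cannot be told apart.

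RPX is a NAC transcription factor known as a regulator of proteasome genes, and XVE is an activator, so estradiol switches on the transgene. A transcript can become scarcer within hours only if RNA already present is degraded in that time, and many short-lived plant transcripts encode signalling and defence proteins. In whole seedlings, fewer cells of a type and less RNA per cell cannot be told apart.

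The decreases were modest. The median log2 difference over the 83 probe sets was -0.58, against -0.01 over the 8642 probe sets with a mean mock signal of at least 64, and it ran from -1.10 to -0.50. On the linear scale the mean estradiol signal was between 36.0% and 70.4% of the mean mock signal, and 3 probe sets were at or under 50% of it. On the log2(signal + 16) scale, 1 probe set was at least 2-fold lower. The gap between the lowest mock and the highest estradiol value had a median of 0.18 on the log2 scale and was as small as 0.004. Every estradiol signal lay below every mock signal in 7.74% of all probe sets and in 7.09% of those with a mean mock signal of at least 64. The whole rule was met by 0.365% of all probe sets, or 0.96% of those with a mean mock signal of at least 64, and its mirror image, for transcripts higher after estradiol, by 243 or 1.07%.

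In limma, a linear model fitted across all 22746 probe sets, 0 probe sets or 0% were called lower and 26 or 0.114% higher, with p adjusted by Benjamini-Hochberg and a threshold of 0.05. Before adjustment 1042 of the 22746 were lower and 900 higher at p under 0.05. With so many tests a large number reach that level with no true difference, so nothing is read from these counts. The adjusted p of the 83 lay between 0.16 and 0.585, so none of them is called. A fit without the dimmest probe sets, those with a mean signal at or under the 25th percentile, called 1 probe set lower (limma, adjusted p = 0.0293). The 83 were chosen on this same contrast, so nothing is read from that p. No other fit called any probe set lower. The probe set called is one of the 83, has the largest difference among them and has no gene listed in the annotation used here.

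That probe set gave signals of 123, 71.5 and 75.1 in mock replicates 1 to 3 and of 29.2, 36.7 and 31.2 in estradiol replicates 1 to 3. It had the widest gap between the groups of all 83 (0.73), and its log2 difference was -0.92 against mock replicate 3 alone. The probe set with the next largest difference also has no gene listed. It gave 108, 125 and 149 in mock and 55.6, 41.9 and 85.4 with estradiol, with mock replicate 3 the highest of the controls.

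Of the 83 probe sets, 41 have exactly 1 gene in the platform annotation, 1 has several and 41 have none listed. The 42 without a single gene had a median log2 difference of -0.57, against -0.59 for the 41 named genes, and mean mock signals from 64.8 to 2511. By their suffix, 4 of the 83 probe sets match more than a single transcript. Roles given below come from general knowledge of these Arabidopsis genes, since the annotation holds no functions, and the grouping by role was made after the values were seen. It left 10 of the 41 named genes without an assigned role. Other probe sets were not grouped in this way, so the size of a role group has no background share and is not read as a result.

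The arrays did not behave alike within their groups. Mock replicates 1 and 2 gave a 25S rRNA control signal of 302 and 286, against 1534 on mock replicate 3 and 918 to 1323 on the estradiol arrays. Estradiol replicate 3 had the highest 3'/5' signal ratio of the actin control, 15.2 against 4.37 to 6.11, and of the GAPDH control, 1.68 against 0.969 to 1.15, in the newer design of these controls. In the older design it was also the highest, 15.9 against 6.87 to 12.8 for actin and 2.32 against 1.04 to 2.07 for GAPDH. A raised ratio is a sign of shortened RNA. Of the tissue markers, 2 of 8 listed shoot genes, 3 of 5 root genes, 1 of 3 guard cell and phloem genes and 2 of 3 meristem genes were measured by a probe set of their own. The summed signal was 2553 to 2812 in mock and 2246 to 2586 with estradiol for shoot markers and 2504 to 2685 and 1682 to 2612 for root markers. For FAMA it was 36.2 to 43.7 and 22.6 to 45.8, and for the meristem markers AUR1 and AUR2 it was 65.4 to 76.0 and 47.9 to 89.0. Their part in the results was not tested.

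**Figure D1:**
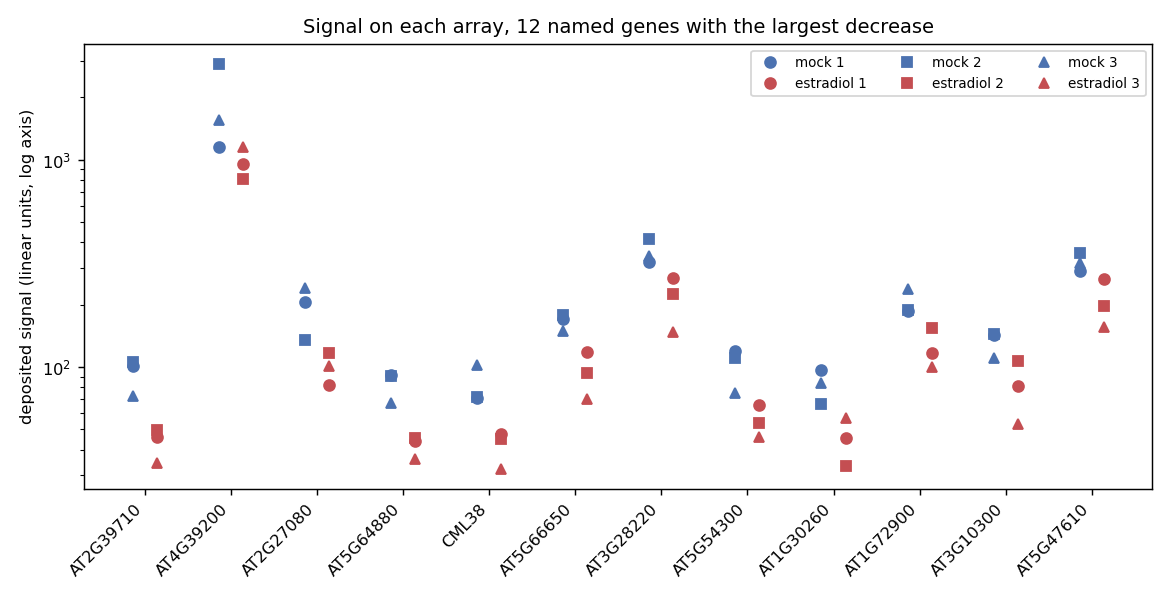
Deposited signal (linear units on a log axis) on each of the 6 arrays for the 12 named genes with the largest log2 difference. Blue points are mock and red points estradiol arrays, with a circle, a square and a triangle for replicates 1, 2 and 3. The groups do not overlap in any gene, as the rule asks, but they nearly touch in AT4G39200 and AT3G10300.

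Of the named genes, 4 encode calcium-related proteins, with differences from -0.75 to -0.54. CML38, a calmodulin-like calcium sensor known to respond to wounding and low oxygen, gave 70.5, 71.4 and 103 on mock replicates 1 to 3 and 47.4, 45.1 and 32.4 on estradiol replicates 1 to 3. Its log2 difference was -0.75 ± 0.19 (SE, n = 3 each), and mock replicate 3 was the highest control, so the difference was -1.05 against that array and -0.60 and -0.61 against the other two. AT5G66650, of the calcium uniporter family that carries calcium into organelles, gave 171, 178 and 149 in mock and 119, 93.7 and 70.3 with estradiol. Its difference of -0.74 was -0.60 against mock replicate 3.

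AT3G10300 encodes a calcium-binding protein with EF-hands, the motif that holds the ion. It gave 143, 145 and 110.2 in mock and 80.9, 108 and 53.3 with estradiol, so that mock replicate 3 and estradiol replicate 2 were only 0.03 apart on the log2 scale. AT2G32450, a calcium-binding protein with tetratricopeptide repeats, was dimmer and tighter, with 66.2, 79.8 and 71.5 against 45.4, 49.7 and 39.6. The 4 genes had a median difference of -0.70, and 3 of them were at least 0.5 lower than mock replicate 3 alone.

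Both defence-type genes were at least 0.5 lower than mock replicate 3. AT2G27080 encodes a protein related to NDR1 and HIN1, membrane proteins of pathogen responses, and gave 206, 135 and 239.7 in mock and 82.0, 117 and 101 with estradiol. AT1G72900 encodes a protein with a TIR domain, the signalling domain of many plant immune receptors, and gave 187, 188 and 238 in mock and 117, 154 and 100.4 with estradiol. Mock replicate 3 was the highest control in both, so the differences of -0.83 and -0.67 against all controls were -1.15 and -0.88 against mock replicate 3. In AT2G27080 mock replicate 1 was closer to mock replicate 3 than to mock replicate 2, the lowest control.

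Mock replicate 3 was the highest control in 5 of the 41 named genes, namely AT2G27080, AT1G72900, CML38, AT4G27390 and AT2G42900. AT2G42900 belongs to the plant basic secretory proteins, and its lowest control was close to the estradiol arrays. It gave 58.3, 74.3 and 93.5 in mock and 56.8, 44.6 and 33.0 with estradiol. AT4G27390 gave 47.9, 71.7 and 74.5 in mock and 41.7, 40.0 and 28.8 with estradiol, the dimmest mock mean of the named genes (64.7 ± 14.6, SD, n = 3).

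Genes of ubiquitin ligases and of TRAF-like proteins formed a group of 5, with a median difference of -0.60 and 4 members at least 0.5 lower than mock replicate 3. AT5G47610 and AT1G49200 encode RING-H2 finger proteins, the type of ubiquitin ligase that passes ubiquitin directly from its carrier to the substrate. AT1G49200 gave 79.9, 88.0 and 84.7 in mock and 57.9, 53.3 and 40.0 with estradiol, and its controls were among the tightest (SD 4.08). AT5G47610 gave 290.5, 356 and 317 in mock and 266, 196 and 156 with estradiol, with estradiol replicate 3 the lowest. AT5G01720 encodes an F-box protein with leucine-rich repeats, the substrate-binding part of another class of ligase, and had the smallest difference of the group (-0.50).

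AT3G28220 and ZW9 encode TRAF-like proteins with a MATH domain, a protein-binding fold. AT3G28220 gave 320.3, 413 and 342 in mock and 269, 225 and 148 with estradiol. ZW9 gave 370, 481 and 387 in mock and 306, 199 and 307 with estradiol. Their controls did not split between mock replicates 1 and 2 and replicate 3: mock replicate 3 lay between the other two in both, and the differences of -0.73 and -0.60 were -0.68 and -0.52 against it alone.

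The mixed group of cell wall, lignin and secreted enzymes held 7 genes, of which 3 were at least 0.5 lower than mock replicate 3. AT2G39710, an aspartyl protease, had the largest difference of all named genes, -0.87 ± 0.19 (SE, n = 3 each). It gave 101, 106 and 72.3 in mock and 45.9, 49.6 and 34.6 with estradiol, so mock replicates 1 and 2 stood above replicate 3 by 0.44 on the log2 scale, yet the difference against replicate 3 was still -0.58. BGLU46, a β-glucosidase that releases lignin precursors from their glucosides, gave 117, 129 and 125 in mock and 77.2, 56.4 and 106 with estradiol. Here the controls were close and the estradiol arrays spread, with replicate 3 the highest.

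HCT, the hydroxycinnamoyltransferase that directs phenylpropanoids towards lignin, showed the opposite pattern. It gave 506, 337 and 311 in mock and 279, 277 and 224 with estradiol, so its difference of -0.51 was -0.93 against mock replicate 1 but -0.36 and -0.25 against replicates 2 and 3, and -0.31 without mock replicate 1. AT3G57020, a strictosidine synthase-like protein, gave 1575, 1199 and 1118 in mock and 879, 1085 and 692 with estradiol and had a gap of 0.04 between the groups. AT3G04010, a glycosyl hydrolase of the glucan endo-β-glucosidase type, and AT3G47380, an inhibitor of invertases or pectin methylesterases, had differences of -0.59 and -0.57, and of -0.46 and -0.36 against mock replicate 3.

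Redox and metabolic genes had the smallest median difference against mock replicate 3 among the role groups of at least 3 genes. None of the 4 was 0.5 lower than mock replicate 3, and their median difference was -0.29 against it, against -0.65 when compared with mock replicates 1 and 2. STR18, a sulfurtransferase of the rhodanese type, gave 424, 303 and 242 in mock and 200.7, 179.8 and 234 with estradiol, so mock replicate 3 was barely above estradiol replicate 3. AT4G21105, a cytochrome c oxidase subunit of the mitochondrial respiratory chain, gave 679, 782 and 516.5 in mock and 487, 476 and 402 with estradiol. AT5G50100 encodes a DCC-type thiol-disulfide oxidoreductase and had a difference of -0.55, or -0.36 against mock replicate 3.

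GSTU18, a tau-class glutathione S-transferase that conjugates glutathione to foreign compounds, completes the group. It gave 289, 213 and 232 in mock and 166, 186 and 147 with estradiol, a difference of -0.51 ± 0.15 (SE, n = 3 each).

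RNA and translation genes were 3. AT4G39200, which encodes ribosomal protein S25 of the small subunit, had the second largest difference among named genes (-0.84) and the largest error (SE 0.41, n = 3 each). It gave 1152, 2891 and 1557 in mock and 958, 809.9 and 1149 with estradiol. Without mock replicate 2, its highest array, the difference was -0.47, and mock replicate 1 and estradiol replicate 3 were nearly equal. AT4G14270, a partner of the poly(A)-binding protein, was lower by 0.53 with a much smaller error (SE 0.08): 227, 185 and 205 in mock and 139, 137 and 134 with estradiol. AT2G35410, an RNA-binding protein, gave 336, 332 and 238 in mock and 180.5, 218 and 206 with estradiol, and its difference of -0.53 was -0.23 against mock replicate 3.

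Lipid genes numbered 3, with a median difference of -0.54, and membrane transport genes 2, also at -0.54. AT3G51730, with a saposin B domain of the kind that presents lipids to enzymes, was the brightest named gene, with 1941, 2360.0 and 2060.4 in mock and 1691, 1647 and 1098 with estradiol. AT4G29070, of the phospholipase A2 family, had a difference of -0.60, and AT1G73480, an α/β-hydrolase, one of -0.50 that was -0.97 against mock replicate 1 and -0.26 and -0.27 against the other two (-0.27 without mock replicate 1). The nucleotide-sugar transporter AT5G65000 and AT2G25520, of the drug/metabolite transporter superfamily, both had -0.54. ARLA1D, an ARF-like small GTPase of membrane traffic, gave 184, 147 and 110.1 in mock and 94.6, 104 and 89.1 with estradiol, and its difference of -0.52 was -0.17 against mock replicate 3, the smallest of the named genes.

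Among the 10 genes with no assigned role, AT5G64880, AT5G64850 and AT2G30695 were at least 0.5 lower than each control. Without estradiol replicate 3 their differences against all controls were -0.70, -0.47 and -0.35. AT5G64880 gave 91.5, 90.2 and 67.2 in mock and 43.8, 45.6 and 36.2 with estradiol, a gap of 0.43 that only CML38 exceeded among the named genes. AT5G64850 gave 135, 147 and 131 against 89.9, 99.8 and 65.5. AT5G54300 was more uneven, with 120, 110.3 and 74.7 in mock and 65.5, 53.9 and 46.2 with estradiol, and AT1G30260 gave 96.7, 66.6 and 83.7 in mock and 45.5, 33.2 and 56.9 with estradiol. The other 6 (AT2G30695, AT5G10580, AT1G21050, AT2G26210, AT3G14560 and, above, AT4G27390) had differences from -0.60 to -0.51.

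**Figure D2:**
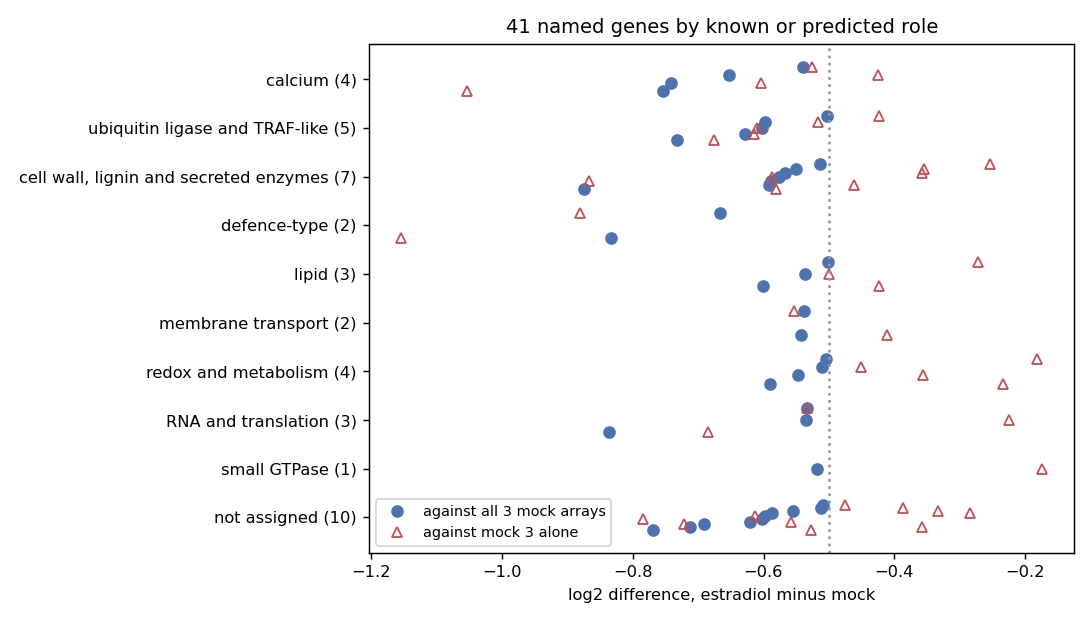
Log2 difference, estradiol minus mock, for the 41 named genes grouped by role, with the number of genes in parentheses. Blue circles use all 3 mock arrays and red triangles mock replicate 3 alone, and the dotted line marks the 0.5 of the rule. The redox and metabolic genes and the small GTPase have every triangle to the right of the line, while both defence-type genes have theirs far to the left.

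Mock replicate 3 was the lowest control in 44 of the 83 probe sets, or 53.0%, and the highest in 13, or 15.7%. Over all probe sets with a mean mock signal of at least 64, it was the lowest in 32.3% and the highest in 39.9%. The median difference of the 83 was -0.63 against mock replicate 1, -0.63 against mock replicate 2 and -0.46 against mock replicate 3. Each of these differences uses the mean of all 3 estradiol arrays. The mean of log2(signal + 16) over the 83 was 7.73, 7.71 and 7.58 on mock replicates 1 to 3. It was 7.14, 7.12 and 6.95 on estradiol replicates 1 to 3, so replicate 3 was the lowest in both groups. A difference of at least 0.5 was kept by 65, 59 and 39 of the 83 against mock replicates 1, 2 and 3 in turn. Of the probe sets with a mean mock signal of at least 64, 5.98%, 4.95% and 3.41% reach it. The rule used the same arrays, so an excess over these shares is fixed by the choice and is not read as a result. Against mock replicate 3, 36 more lay between 0.25 and 0.5 lower and 8 were less than 0.25 lower, 4 of them named (STR18, AT2G35410, ARLA1D and AT4G21105).

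A difference of at least 0.5 against every one of the 3 controls was found in 16 of the 83, among them 10 named genes, and in 18 or 0.208% of the probe sets with a mean mock signal of at least 64. The 83 were chosen on these same values, so nothing is read from this share. These were AT2G39710, AT5G64880, CML38, AT5G66650, AT3G28220, AT1G72900, AT5G64850, AT1G49200, AT2G30695 and BGLU46. The 10 named genes fall in the calcium, ligase, defence, wall and unassigned groups. None is among the 4 redox, 3 RNA, 3 lipid or 2 transport genes. These groups are small and were made after the values were seen, so no pattern of function is read from this.

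**Figure D3:**
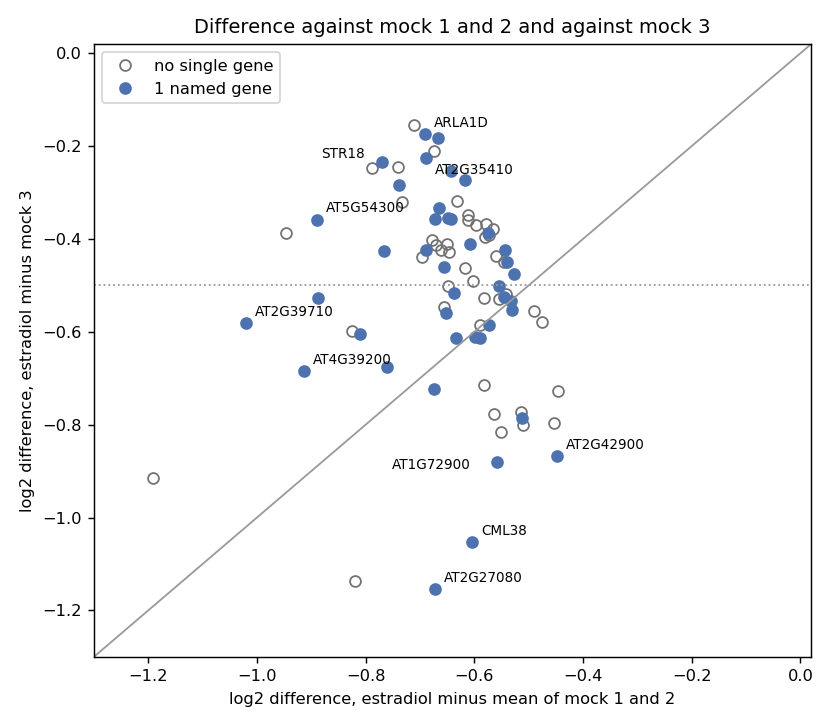
Log2 difference of each of the 83 probe sets against the mean of mock replicates 1 and 2 (x axis) and against mock replicate 3 alone (y axis). Filled points have 1 named gene, the solid line marks equal differences and the dotted line a difference of -0.5 against mock replicate 3. Points above the solid line, such as ARLA1D and STR18, had a larger decrease against the mean of mock replicates 1 and 2. Points below it, such as CML38 and AT2G27080, had a larger decrease against replicate 3. A single array can place a point: AT2G27080 had -0.95 against mock replicate 1 and -0.40 against mock replicate 2.

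With mock replicates 1 and 2 as the only controls the rule was met by 325 probe sets, of which 76 are among the 83 and 249 are not. On mock replicate 3, which this choice did not use, the 325 had a median difference of -0.08. On that array 10.2% of the 325 were at least 0.5 lower and 40.3% were higher with estradiol, against 3.1% and 45.6% of all probe sets whose mean over the controls used was at least 64. Without mock replicate 1 the rule gave 130 probe sets with a median of -0.29 on the array left out, and without mock replicate 2 it gave 103 with a median of -0.40. The share at least 0.5 lower on the array left out was 30.0% and 34.0%, against 5.68% and 4.64% of all probe sets chosen by the same minimum. The median of all such probe sets on the array left out was 0.01, 0.003 and -0.02 for mock replicates 1, 2 and 3. The estradiol arrays took part in the choice each time, so these values are not free of it.

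With mock replicate 3 as the only control, 323 probe sets met the rule and 39 of them are among the 83, which is 12.1% of the 323 and 47.0% of the 83. With mock replicate 1 or 2 as the only control the numbers were 571 and 475, with 65 and 59 of the 83 among them.

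**Figure D4:**
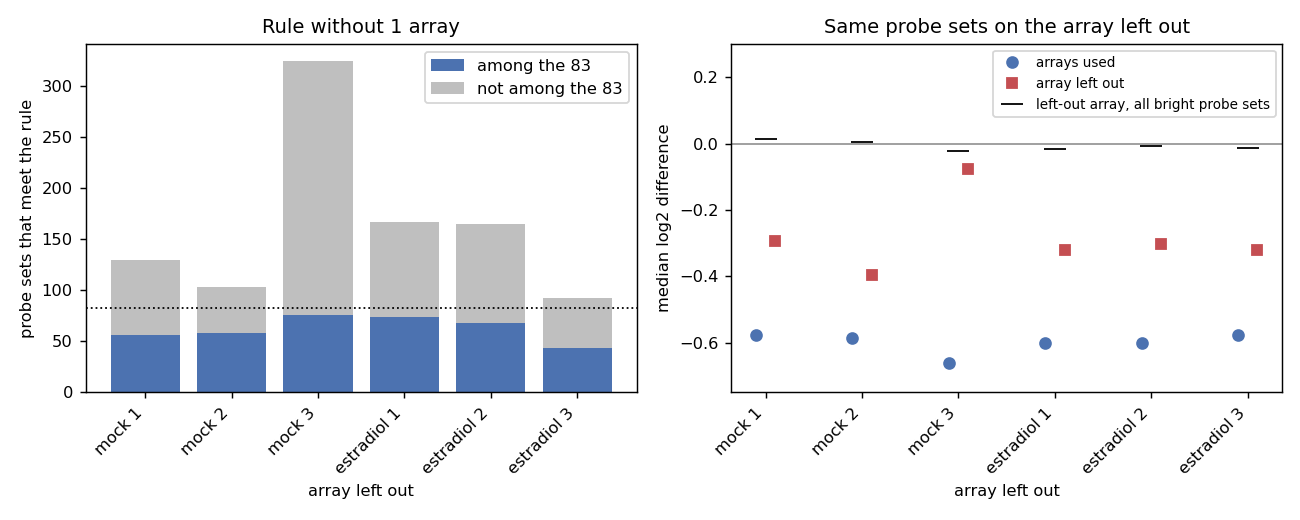
Left, number of probe sets that meet the rule when 1 array is left out, split into those among the 83 (blue) and others (grey), with a dotted line at 83. Right, their median log2 difference on the arrays used (blue circles), on the array left out (red squares) and, on that array, the median of all probe sets whose mean over the controls used was at least 64 (black bars). Without mock replicate 3 the count is the highest, 325, and the median on the array left out is the nearest to 0, -0.08.

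Estradiol replicate 3, whose 3'/5' control ratios were raised, was the lowest of its group in 49 of the 83, or 59.0%, against 41.2% of the probe sets with a mean mock signal of at least 64. Replicates 1 and 2 were the lowest in 12 and 22. The median difference was -0.51 for estradiol replicates 1 and 2 and -0.71 for replicate 3, each against all controls. Without estradiol replicate 3, 44 of the 83 stayed at least 0.5 lower and 22 of the 41 named genes did not, among them AT3G10300, AT5G47610, HCT and GSTU18. Of the 10 named genes at least 0.5 lower than every control, AT5G64850, AT1G49200 and AT2G30695 were also lost and the others kept. The rule gave 93 probe sets without estradiol replicate 3. Without estradiol replicate 1 or 2 it gave 167 and 165, with 74 and 68 of the 83 among them. The part of RNA integrity in these differences was not tested.

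Relatives of the members were followed in 6 gene families, picked after the members were known, with each family's values given as a description. Of 11 tau glutathione S-transferases with a probe set of their own, 8 had a negative difference and 4 had a mean mock signal of at least 64. Among those 4, GSTU18 was the lowest and GSTU27 (-0.39) and GSTU16 (-0.30) came next, while GSTU22 was called higher (2.67). Of the dimmer genes, GSTU25 had 2.68, GSTU20 had 0.66 and the others had negative differences. The 7 measured calmodulin-like genes all had negative differences (median -0.27), beside a median of -0.03 over all probe sets. Only 3 had a mean mock signal of at least 64: CML38 (-0.75), CML42 (-0.09) and CML30 (-0.02). The others were dimmer, such as CML37 and CML43, both with -0.32 at mean mock signals of 13.8 and 40.5. No decrease of the family as a whole is read from these values. The 20 measured β-glucosidases had a median of -0.07, and BGLU45, the neighbour of BGLU46, had -0.06 at a mean mock signal of 22.0.

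The 4 genes for ribosomal protein S25 differed in direction. AT4G39200 had -0.84, AT2G21580 gave 347, 446 and 491 in mock and 487, 504 and 594 with estradiol (0.30), AT4G34555 had 0.22 and the dim AT2G16360 -0.06. Of the strictosidine synthase-like neighbours of AT3G57020, AT3G57030 had 0.05 and AT3G57010, at a mean mock signal of 9.91, 0.08. In the ARLA1 family, ARLA1C had -0.36 with 68.0, 211 and 92.5 on the mock arrays, and ARLA1A and ARLA1B had 0.03 and 0.005. Near-identical copies can share probes, so values of close relatives are not fully separate.

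**Figure D5:**
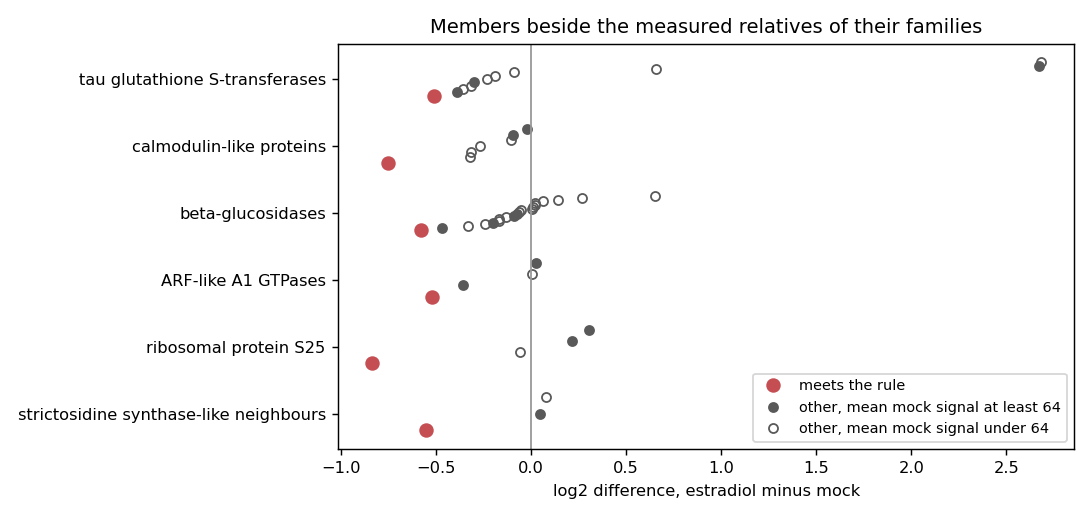
Log2 difference, estradiol minus mock over all 6 arrays, for the measured genes of 6 families that hold a member. Large red points meet the rule, small filled points are relatives with a mean mock signal of at least 64 and open points dimmer relatives. The S25 and strictosidine synthase-like members stand apart from relatives near or above 0, and the tau glutathione S-transferases span -0.51 to 2.68.

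The 41 named genes are spread over all 5 chromosomes, with 9, 8, 7, 5 and 12 on chromosomes 1 to 5. On chromosome 5 that is 29.3%, against 23.3% of the 4402 probe sets with 1 gene and a mean mock signal of at least 64. AT5G64850 and AT5G64880 are separated by 2 protein-coding genes, and AT5G65000 follows after 12 more. The genes between the first pair, DPE1 and AT5G64870, were dim (mean mock signals of 20.2 and 18.2) and had differences of 0.31 and 0.03. The median gene length was 1743 bases for the named members and 2242 for the 4391 probe sets with a gene length at that signal level. Function words could be read for 18.0% of those 4402, too few for shares by class, and of the members they matched CML38 (calcium) and GSTU18 (transferases).

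At the threshold of 0.5, AT1G73480, AT5G01720 and AT4G21105 were the nearest inside. SWEET2, a sugar transporter (-0.498), AT5G66090 (-0.49) and AT5G63150 (-0.49) were the nearest outside. At the threshold of 64, AT4G27390, AT2G26210 and AT3G47380 were just inside, with mean mock signals of 64.7, 70.7 and 71.7, and AT1G63850, AT1G56300 and AT5G17350 just outside, with 63.6, 61.1 and 57.5. AT1G56300, which encodes a DnaJ-type co-chaperone, shows the split of the controls most plainly of these. It gave 89.5, 65.0 and 28.8 in mock and 26.3, 27.1 and 22.6 with estradiol, a difference of -0.815 that was -0.12 against mock replicate 3.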

How the data were processed

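The authors' deposited values are linear intensities, 1 for each probe set and array, with array medians from 35.68 to 38.66. The submitters' processing notes name GCOS and affy with no version or role; the sources used here do not give how probes were summarised and scaled. Of 22810 probe sets, 64 controls stayed out of the choice and the test. Genes were taken from GEO's platform annotation and renamed by Entrez ID to RefSeq (TAIR10.1): 13513 probe sets have 1 gene, 503 several and 8730 none listed. Values were transformed as log2(intensity + 16), which understates changes of dim probe sets. Calls over the whole table came from limma 3.58.1 (R 4.3.3; lmFit, eBayes, treatment as the single factor, two-sided, Benjamini-Hochberg), which was tested on simulated data. SE is that of a difference of 2 means of 3 arrays with the pooled SD of both groups. An exact permutation test of 3 against 3 arrays cannot go below p = 0.1. The members and lists were chosen with earlier results of these data known. Named genes are members with 1 gene, picked by the largest difference, the difference against mock replicate 3, the gap between groups, the mock signal, the split of the controls, the function class and nearness to a threshold; the other members were named after their values were seen. Promoter and protein sequences were not used here. Alternatives changed the pseudocount, scaling, signal minimum, dim filter, pairing and arrays. Plots were made with matplotlib 3.10.9 (Python 3.11.15).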

Additional observations from a re-analysis of the deposited data

How the results depend on the processing

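The count of 83 probe sets was 23 with a pseudocount of 64 and 44 with the higher planned minimum of mean mock signal. It was 285 with replicate 3 of both groups left out and 323 with mock replicate 3 as the only control, and, as settings added after the data were seen, 571 and 475 with mock replicate 1 or 2 as the only control. Leaving out 1 array gave 93 to 325, the fewest without estradiol replicate 3 and the most without mock replicate 3. Leaving out any array loosens the separation that the rule asks for, and the reason for the spread was not tested. The choice of the 83 fixes their direction under any choice of arrays, and their median difference lay between -0.63 and -0.51 when 1 array was left out. The 26 limma calls became 0 with a pseudocount of 1, 11 with a pseudocount of 64, 97 (96 higher and 1 lower) with the filter at the 25th percentile of mean signal, 0 with replicate 3 of both groups left out and 0 with mock replicate 3 as the only control. Without 1 array they numbered 0 to 57: 1, 0 and 2 without mock replicates 1, 2 and 3, and 0, 0 and 57 without estradiol replicates 1, 2 and 3. With the replicate number as a block there were 17 calls, all higher. The numbers were not taken as pairs. The deviations of same-numbered arrays from their group means correlated at 0.0908, 0.113 and 0.329 (replicates 1, 2 and 3), the first under 0.1. Mock replicate 1 correlated best with estradiol replicate 2 and mock replicate 2 with estradiol replicate 1. Mock replicate 3 correlated best with estradiol replicate 3, and at -0.192 and -0.25 with estradiol replicates 1 and 2. Replicate 3 thus deviated alike in both groups, which the fit without the block does not account for. Detection calls were not used here, so signal over background is unknown for dim probe sets. Other causes were not tested.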
